A study of Homo sapiens with 3 samples.

Results

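The circadian clock genes PER1, PER2, PER3, CRY1, CRY2, NR1D1, NR1D2, BHLHE40, BHLHE41 and DBP were examined in a genome-wide map of TFE3 binding. All 10 are known as genes of the clock's E-box feedback loop. Their members in the map were the binding summits inside each gene's span on hg19 or within 5 kb of it, with spans given in whole kb. These windows held 45 of the 62287 summits used from replicate 1 and 54 of the 72647 from replicate 2. Pairing each summit with its mutual nearest in the other list, within 100 bp, gave 40 pairs of the 47396 found genome-wide. The genes were chosen as E-box genes of the clock, with results of the data in view. Their summits were picked by position and then paired between the lists. Counts and scores are therefore given as a description, with no test.

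The map comes from HK-2, an immortal human cell line of proximal tubule origin in the kidney, carrying HA-tagged TFE3 under doxycycline control. Chromatin was precipitated through the HA tag (antibody 3F10) in 2 replicate libraries, and the series also has 1 input DNA library, which was not used here. Per the labels' protocols, all 3 samples come from this inducible line, cultured for 24 h with or without 0.2 µg/ml doxycycline; the sources used here do not say which libraries received it, so nothing is said of induction. Nothing in the labels says that the replicates were separate cultures, and no gene expression was measured, so neither the identity of the cells nor the activity of any clock gene can be read from these lists.

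TFE3 belongs to the MiT/TFE family of helix-loop-helix proteins, which recognises sequences built around CACGTG, the palindromic E-box, and is known for its lysosomal and autophagy targets. The clock activators CLOCK and BMAL1 use the same core letters. They switch on PER and CRY, whose proteins feed back to block them, NR1D1 and NR1D2 (REV-ERB alpha and beta), which repress the BMAL1 gene, BHLHE40 and BHLHE41 (DEC1 and DEC2), which compete for E-boxes, and DBP, an activator that binds D-boxes. NR1D1 has been reported as a gene controlled by TFEB and TFE3.

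Promoter sequences were taken from RefSeq (GRCh38.p14), which lists 13 start sites for the 10 genes. These coordinates belong to another build than the summits, so a sequence shows what lies before a start and cannot be laid under a summit. The 250 bases before the start are printed for the 4 genes that held pairs in the top 10% of both lists, with any searched motif in capitals. For PER3 the more upstream of 2 listed starts is shown.
PER1, chr17:8152405-8152654, minus strand: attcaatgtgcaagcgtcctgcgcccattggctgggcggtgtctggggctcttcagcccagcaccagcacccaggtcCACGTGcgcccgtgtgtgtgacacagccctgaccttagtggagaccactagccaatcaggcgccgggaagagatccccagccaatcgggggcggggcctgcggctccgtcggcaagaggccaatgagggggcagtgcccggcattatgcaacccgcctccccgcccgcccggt
PER3, chr1:7784041-7784290, plus strand: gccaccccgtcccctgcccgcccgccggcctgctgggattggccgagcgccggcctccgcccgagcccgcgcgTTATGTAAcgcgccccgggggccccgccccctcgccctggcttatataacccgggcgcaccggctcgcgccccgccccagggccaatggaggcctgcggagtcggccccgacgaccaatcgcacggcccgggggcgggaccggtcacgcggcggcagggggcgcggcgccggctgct
NR1D1, chr17:40100590-40100839, minus strand: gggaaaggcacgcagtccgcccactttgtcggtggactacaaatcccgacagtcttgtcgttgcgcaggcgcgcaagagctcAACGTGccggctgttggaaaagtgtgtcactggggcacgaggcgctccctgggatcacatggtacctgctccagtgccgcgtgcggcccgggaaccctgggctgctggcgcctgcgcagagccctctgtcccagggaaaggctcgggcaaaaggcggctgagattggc
DBP, chr19:48637380-48637629, minus strand: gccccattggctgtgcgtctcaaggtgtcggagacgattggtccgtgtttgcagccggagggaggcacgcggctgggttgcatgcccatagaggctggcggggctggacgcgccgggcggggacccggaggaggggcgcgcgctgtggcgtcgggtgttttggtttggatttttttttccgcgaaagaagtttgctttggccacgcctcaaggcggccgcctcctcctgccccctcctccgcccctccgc

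Of these, PER1 holds the E-box CACGTG, 173 bases before its start. NR1D1 holds the variant CACGTT on the opposite strand, which reads AACGTG in the printed direction, 168 bases before its start. PER3 holds a D-box, TTATGTAA, 177 bases before the start, and DBP holds none of the 6 motifs searched in this window. The other motifs were TCACGTGA (M-box), the CLEAR element of lysosomal genes (the M-box with G before it and C after it) and TGACGTCA (CRE), all searched on both strands. The M-box and CLEAR contain CACGTG, and no promoter of the 10 genes held any of these 3.

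The other genes are shown by the matched letters with up to 10 bases on each side, to let the flanks of the E-box be compared.
BHLHE40, E-box: tccaaCACGTGagactcatgt
BHLHE41, E-box: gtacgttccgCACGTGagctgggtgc
NR1D2, first E-box: cgggcggggaCACGTGaggccgctcg
NR1D2, second E-box: gccgcagggaCACGTGggggcggggg
PER2, variant: cgcgcgcggtCACGTTttccactatg
CRY1, variant on the other strand: acacttcagaAACGTGaggtgccggt
CRY2, variant on the other strand: acatggtaggAACGTGagggggcggg

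CACGTG was thus present before 4 of the 13 starts (of PER1, NR1D2, BHLHE40 and BHLHE41), and CACGTT before another 4 (of PER2, NR1D1, CRY1 and CRY2). Among all 35116 start sites in the table, over 300 bases each, 7.26% held CACGTG and 5.34% held CACGTT. A D-box was present before 2 of the 13 starts, of PER3 and NR1D2, against 0.886% of all start sites. The NR1D2 and CRY2 matches belong to the more downstream of 2 listed starts, and the listed PER2 start lies 11455 bp inside the gene model of that build. The genes were picked as E-box genes of the clock, and some of the 13 starts belong to the same gene. The contrast with all start sites is therefore no test. A match is a description of letters and not a site that was shown to be bound.

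All 10 genes had a paired summit within 2 kb of the 5′ edge of their span, the edge on the side where transcription begins. Of genome windows of 4000 bp, the same width, 5.4% held a pair. These windows include stretches that cannot be mapped, and the 5′ ends of other genes were not analysed here, so nothing particular to clock genes follows from the contrast. The 5′ edges are given only in whole kb. For PER2 the RefSeq gene model of the other build is 56.0 kb long, against a span of 47 kb. An edge may therefore lie further than 1 kb from a start. Of the 40 pairs, 18 lay in these zones, 15 further inside the genes, 6 in the downstream flanks of 5 genes and 1 in the upstream flank of CRY2. The 18 pairs of the zones had a median mean score percentile of 85.6, and the 15 in gene bodies had 58.2. The 6 in downstream flanks had 80.1, and the 1 in the upstream flank had 74.9. Percentiles rank each score within the list of its own library, where 100 is the highest.

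**Figure D1:**
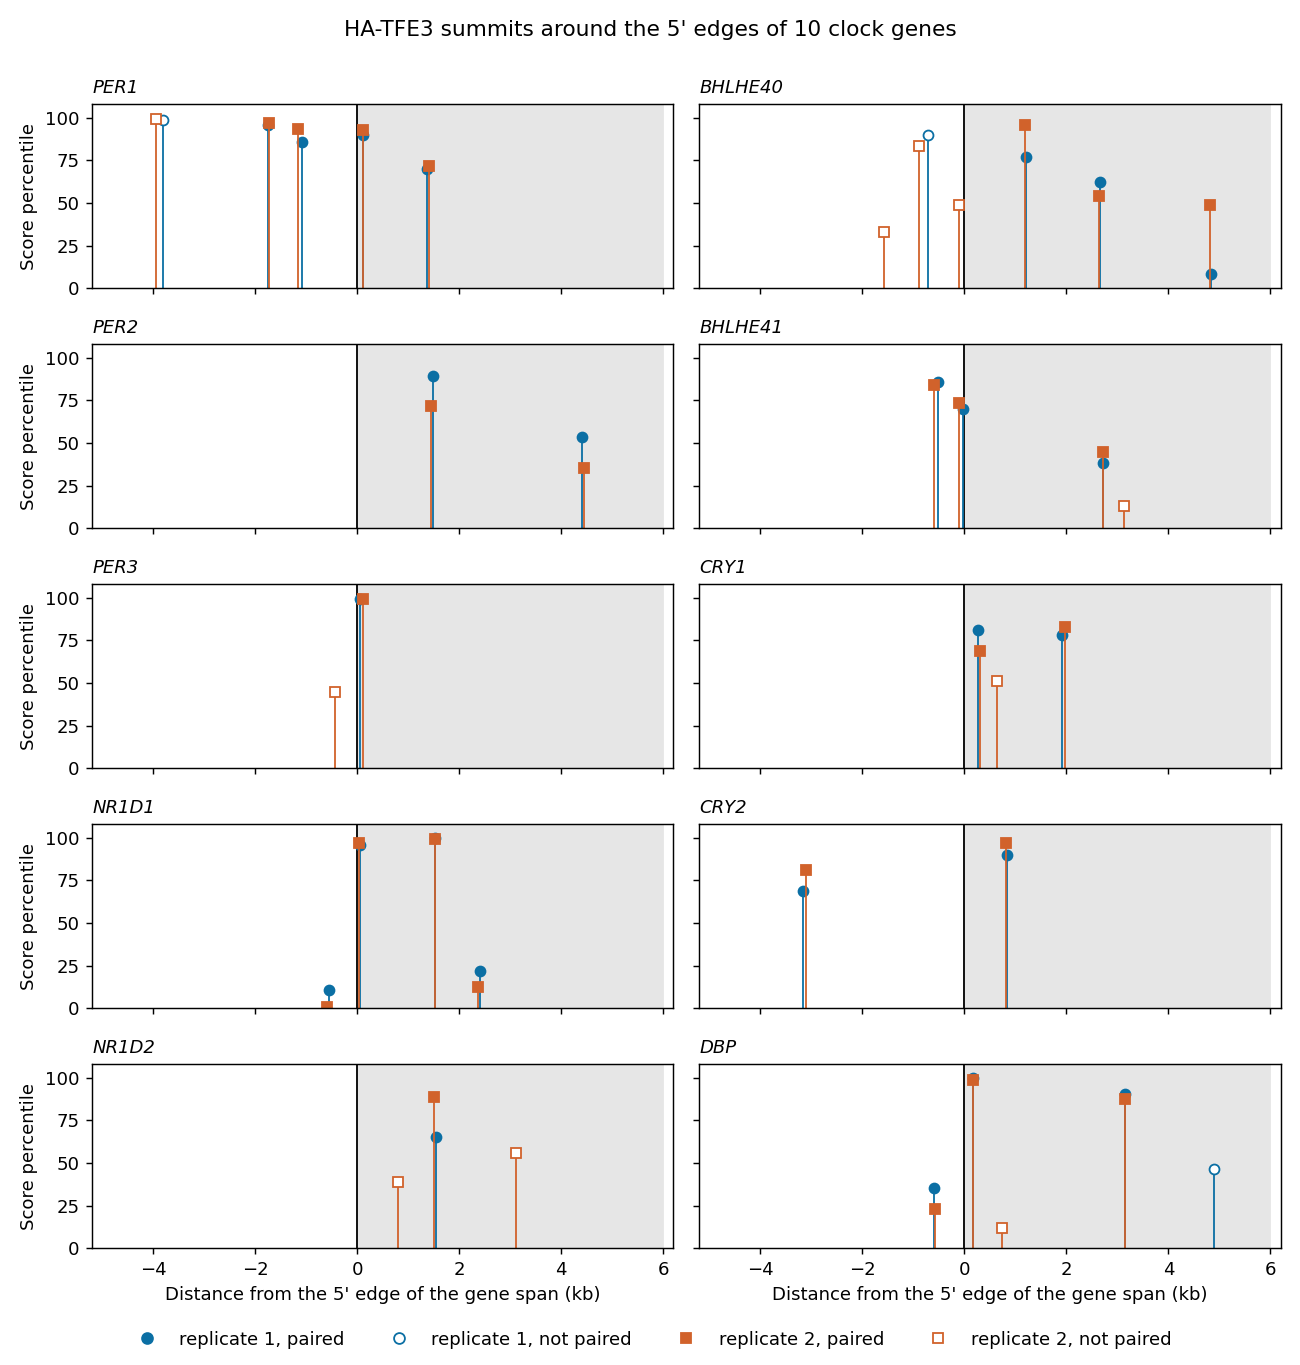
Score percentile (vertical axis) of every HA-TFE3 summit from 5 kb before to 6 kb after the 5′ edge of each gene span (horizontal axis, kb; grey, the span). Circles are replicate 1 and squares replicate 2, filled where the summit is paired within 100 bp. PER3, NR1D1 and DBP carry their highest pairs within 2 kb of the edge, and the open symbols of PER1 before the edge lie 127 bp apart.

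The period genes encode the repressors that accumulate and shut down their own transcription. At PER3 1 pair stood at the 5′ edge. Its summits lay at base 7844061 of chromosome 1 in replicate 1 and at 7844114 in replicate 2, 61 and 114 bp inside the span, with scores of 52.5 and 56.6. The median scores of the whole lists were 8.55 and 8.38, so both libraries placed this site far above most others, at percentiles 99.37 and 99.39. Replicate 2 listed another summit 440 bp before the edge, with a score of 8.02 and no partner. The other 2 pairs of PER3 lay 24500 and 26638 bp inside the span in replicate 1, with scores of 6.02 and 4.59, and of 11.2 and 12.9. VAMP3 lies within 5 kb on the 5′ side of PER3 in RefSeq, so the window may reach that gene's 3′ side.

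At PER1 the summits formed a row across the 5′ end. The 4 pairs of the zone lay 1752 and 1737 bp before the edge, 1076 and 1169 bp before it, 112 and 102 bp inside it and 1371 and 1407 bp inside it, in replicates 1 and 2. Their scores were 33.8 and 41.2, 21.2 and 31.5, 24.8 and 30.4, and 13.3 and 14.2 in the same order. In both libraries the first of them had the highest score of the 4 and the one furthest inside the gene the lowest. PER1 is an immediate responder among the period genes, known to react to hormones and cyclic AMP.

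The highest summits of the PER1 window were not counted as a pair. Base 8059817 of chromosome 17 scored 45.3 in replicate 1 and base 8059944 scored 54.3 in replicate 2, which are percentiles 98.6 and 99.2. They lay 127 bp apart, just over the limit of 100 bp. The PER1 pair just inside that limit, 93 bp apart, is the one 1076 and 1169 bp before the edge. Past the 3′ edge of PER1 another pair scored 33.0 and 25.6, at 941 and 912 bp, where RefSeq lists 2 transfer RNA genes within 5 kb.

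PER2 differed in layout, with 6 pairs spread over its length and none near the top of the lists. The pair nearest the 5′ edge lay 1475 and 1438 bp inside it and scored 24.0 in replicate 1 and 14.1 in replicate 2. This pair ranked at percentiles 89.1 and 71.7, so the libraries were further apart here than at PER3. The pair with the highest mean percentile stood 3254 and 3278 bp past the 3′ edge, with scores of 20.0 and 24.4, on the side where RefSeq places HES6 within 5 kb. HES6 is on the minus strand like PER2, so its 5′ end faces this flank. That pair cannot be assigned to either gene alone. Inside the gene, a pair 33609 and 33568 bp from the edge scored 21.6 and 20.5.

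The cryptochromes are the partners of the period proteins and the main repressors of CLOCK and BMAL1. CRY2 had its highest pair near the 5′ end, at base 45868834 of chromosome 11 in replicate 1 and 45868823 in replicate 2, with scores of 24.8 and 40.5. The percentiles were 89.9 and 97.1, the highest of the window in each library. Upstream of CRY2 a pair at 3161 and 3115 bp before the edge scored 12.9 and 18.8. CRY1, the longest span at 103 kb, held only 3 pairs. The pair at its 5′ edge scored 18.3 and 13.3, and the next, 1916 and 1983 bp inside, scored 16.3 and 19.7. Its highest pair lay 3972 and 3981 bp past the 3′ edge, on the side of MTERF2, with 23.8 and 27.2. MTERF2 is on the minus strand like CRY1, so its 5′ end faces this flank. That pair cannot be assigned to either gene alone. No summit of either library lay between the 5′ zone of CRY1 and that distal pair.

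NR1D1 encodes the nuclear receptor that represses BMAL1 and links the clock to metabolism. It was the only member with 2 pairs in the top 10% of both lists. The pair inside the gene, at base 38255478 of chromosome 17 in replicate 1 and 38255469 in replicate 2, scored 58.2 and 51.8. The pair at the 5′ edge, at 38256956 and 38256976, scored 34.1 and 40.5. The libraries thus ranked the inner pair first, and the 2 pairs stood 1492.5 bp apart between their midpoints. Each was flanked by a weak pair. These scored 4.02 and 2.01 at 558 and 589 bp before the edge, and 5.17 and 4.34 at 2398 and 2358 bp inside it. THRA, the thyroid hormone receptor gene, overlaps the other end of NR1D1 and no summit of the window lay more than 2398 bp inside the span.

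NR1D2, its paralogue, had the fewest pairs. The one near the 5′ end, 1540 and 1504 bp inside, scored 11.8 in replicate 1 and 24.5 in replicate 2. The one deep in the gene, 19220 and 19190 bp inside, scored 16.3 and 20.4. Replicate 1 gave the deep pair the higher score and replicate 2 the pair near the 5′ end. Replicate 2 also listed another 3 summits in the window without a partner in replicate 1, with scores of 6.95, 9.69 and 6.95. NKIRAS1, on the opposite strand, overlaps NR1D2 in RefSeq, so summits there cannot be assigned to either gene alone.

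BHLHE40 and BHLHE41 encode the repressors DEC1 and DEC2, which are helix-loop-helix proteins like TFE3. At BHLHE40 the pair nearest the 5′ edge lay 1215 and 1191 bp inside and scored 15.9 and 35.9. These percentiles, 76.9 and 95.7, were the widest split among the highest pairs of the 10 genes. Before the edge, replicate 1 had a summit of 24.8 at 715 bp and replicate 2 one of 20.4 at 886 bp, which were 171 bp apart and not paired. That upstream summit was the highest of replicate 1 in the window, while in replicate 2 the inner one was. A further pair 1719 and 1653 bp past the 3′ edge scored 15.5 and 14.1. The long noncoding RNA gene BHLHE40-AS1 overlaps BHLHE40 in RefSeq, so summits there cannot be assigned to either gene alone.

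At BHLHE41 a couple of sites stood just before the edge. The upstream one lay 527 and 594 bp before the edge and scored 21.2 and 20.5. The other lay 26 and 104 bp before the edge and scored 13.5 and 15.1. Both libraries gave the upstream site the higher score, and the midpoints stood 495.5 bp apart, the smallest spacing between neighbouring pairs in the 10 windows. Past the 3′ edge, summits of 17.3 and 23.4 lay 111 bp apart and were not paired. SSPN overlaps BHLHE41 in RefSeq, so summits there cannot be assigned to either gene alone.

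DBP encodes the activator that carries the rhythm on to D-box genes. Its 5′ summit, at base 49140840 of chromosome 19 in replicate 1 and 49140828 in replicate 2, scored 58.9 and 50.4, 160 and 172 bp inside the span. The score of replicate 1 was the highest of that library in any of the 10 windows. A second pair, 3144 and 3153 bp inside, scored 25.4 and 23.4, and a weak one before the edge scored 6.67 and 5.31. DBP overlaps SPHK2, on the opposite strand, and has CA11 within 5 kb on its 5′ side, so summits there cannot be assigned to DBP alone. Just outside the window, 5533.5 bp past the 3′ edge, lay a pair of 74.6 and 45.7, the highest of the 7 pairs between 5 and 10 kb from any of the spans. That outside pair was not assigned to a gene.

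The genes were put in order by the mean percentile of their highest pair. PER3 had 99.4 ± 0.014 (SD, n = 2), NR1D1 99.3 ± 0.48 and DBP 99.3 ± 0.62. These 3 did not differ beyond the spread between libraries. PER1 followed at 96.5 ± 1.04, and the gap of 2.79 points from DBP was larger than the pooled SD of 0.854. CRY2 stood at 93.5 ± 5.11 and CRY1 at 89.9 ± 1.50, where neighbours from PER1 to CRY1 were closer than their spread. PER2 at 86.4 ± 2.79 lay below CRY1 by 3.53 points, more than the pooled SD of 2.24. PER2, BHLHE40 at 86.3 ± 13.3 and BHLHE41 at 84.9 ± 1.45 did not differ beyond theirs. NR1D2 was last with 80.6 ± 3.69, below BHLHE41 by 4.31 points against a pooled SD of 2.80. For 7 of the 10 genes the highest pair lay within 2 kb of the 5′ edge, and PER2, CRY1 and NR1D2 were the exceptions. This count depends on the pairing limit of 100 bp. At 200 and 500 bp the highest pair of PER1 lay further than 2 kb before the edge. At 50 bp the highest pairs of PER3 and BHLHE41 lay 26628 and 2722.5 bp inside the span. Highest pairs of other genes in the genome were not placed in this way. The highest pairs of PER2 and CRY1 lay in the 3′ flank, on the side of a neighbouring gene. With a limit of 50 bp between paired summits the site of PER3 no longer counted, and its highest pair fell to percentile 65.1. That of BHLHE41 fell to 41.4. With limits of 200 and 500 bp PER1 stood at 98.9, close to DBP at 99.3. With no flank, CRY1 at 80.3 lay below PER2 at 85.2, PER1 at 91.5 lay below CRY2, and BHLHE41 at 41.4 lay below NR1D2. Among all summits of replicate 2 alone, PER1 at 99.2 lay above DBP at 98.8, and NR1D2 at 88.4 lay above BHLHE41 at 87.3 and PER2 at 88.3. Among all summits of each library alone BHLHE40, at 89.9 in replicate 1 and 95.7 in replicate 2, lay above CRY1 and PER2. The order thus depends on these choices, including the places of PER1, PER2, PER3, CRY1, BHLHE40, BHLHE41 and NR1D2.

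**Figure D2:**
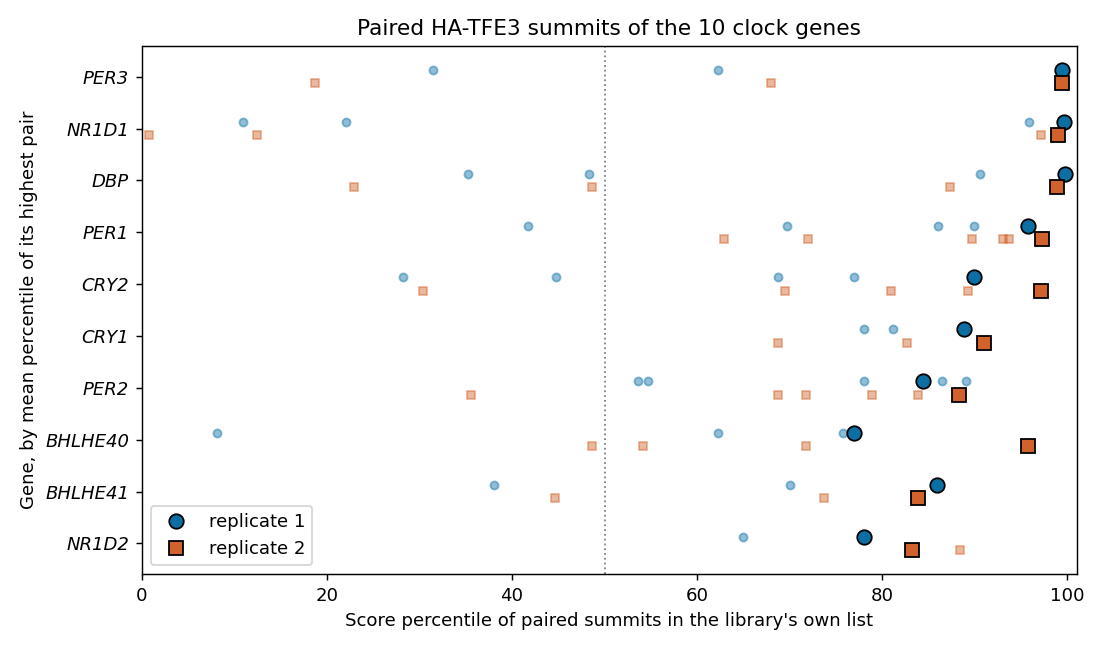
Score percentile in the library's own list (horizontal axis) of each paired summit, by gene. Large outlined symbols mark the highest pair, small symbols the other pairs, circles replicate 1 and squares replicate 2, and the dotted line is the median of a list. PER3, NR1D1 and DBP lie near 99 in both libraries, and BHLHE40 has the widest gap between libraries.

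Among the 40 pairs, 5 ranked in the top 10% of both lists, which is 12.5%, against 9.11% of all pairs. They belonged to 4 genes, PER1, PER3, NR1D1 and DBP, and all 5 lay within 2 kb of a 5′ edge. Of genome windows of 4000 bp, 0.558% held such a pair. The placing near 5′ edges depends on the pairing limit. With limits of 200 and 500 bp there were 6 such pairs. The added one joins the PER1 summits 3817 and 3944 bp before the edge, outside the zone. How many of all such pairs lie near 5′ ends was not measured. The share in the top 10% was close to that of the genome. Above the median of both lists were 29 of the 40, or 72.5%, against 51.1% of all pairs. The median mean percentile was 77.6 for the 40 pairs and 59.5 for all pairs. The 2 libraries placed paired summits a median of 24 bp apart at the clock genes and 26 bp apart overall.

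**Figure D3:**
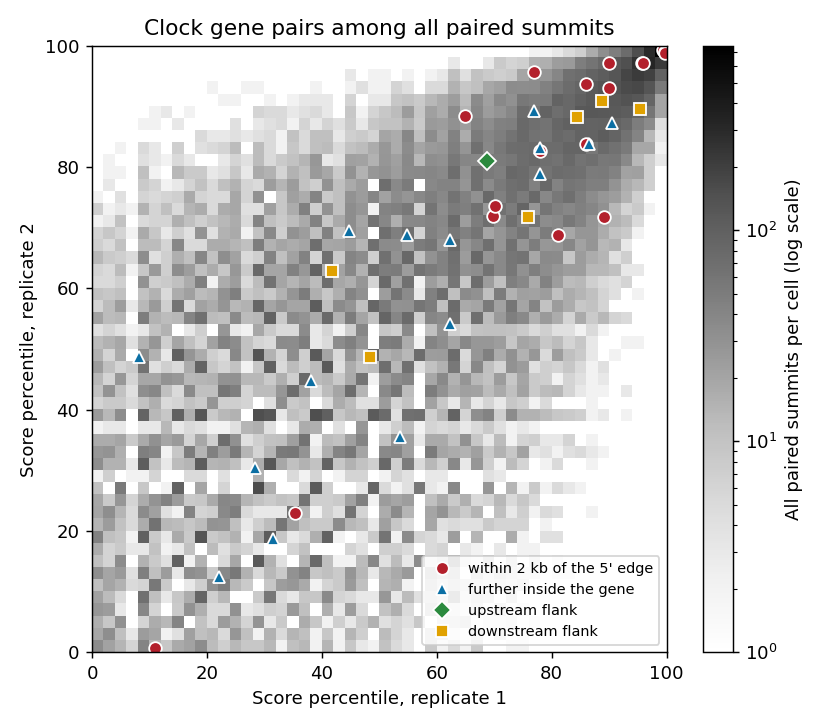
Score percentile in replicate 1 (horizontal axis) and replicate 2 (vertical axis) of the 40 clock gene pairs, over the number of all 47396 pairs per cell of the grid (grey, log scale). Red circles mark pairs within 2 kb of a 5′ edge, of which 5 lie above 90 on both axes, and blue triangles mark pairs further inside the genes.

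The rule's own counts differed between libraries. Of the 45 summits of replicate 1 in the windows, 88.9% were paired, against 76.1% over its whole list. Of the 54 of replicate 2, 74.1% were paired, against 65.2%. The 5 unpaired summits of replicate 1 had a median percentile of 79.6 and include the PER1, BHLHE40 and BHLHE41 summits whose counterparts lay just over 100 bp away. The 14 of replicate 2 had a median of 46.8.

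The windows covered 428 kb and held 0.935 pairs per 10 kb, against 0.156 over the genome. All 10 windows held a pair, and of genome windows of 35000 bp, their median width, 29.6% did. The genes were chosen with their summits in view, and the genome figures include stretches that cannot be mapped. Nothing particular to clock genes follows from either contrast. The density was highest at PER1, with 2.61 pairs per 10 kb, and at BHLHE40, with 2.50. NR1D1 and DBP had 2.22 each, and BHLHE41 had 1.76. These 5 genes have the shortest spans of the 10, from 6 to 13 kb. CRY2 had 1.06 pairs per 10 kb and PER2 1.05, followed by NR1D2 with 0.426, PER3 with 0.417 and CRY1 with 0.265.

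The surroundings also differed. In the rest of the 500 kb on each side, DBP had 0.899 pairs per 10 kb, NR1D1 0.667 and PER1 0.606, all 3 on chromosomes known to be rich in genes. Whether gene density goes with these values was not tested. NR1D2 had 0.131 and PER2 0.182. The window was denser than its surroundings for 9 of the 10 genes, and PER3 was the exception, with 0.417 against 0.475. Windows of other genes were not compared with their surroundings, so nothing particular to clock genes follows from this count.

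**Figure D4:**
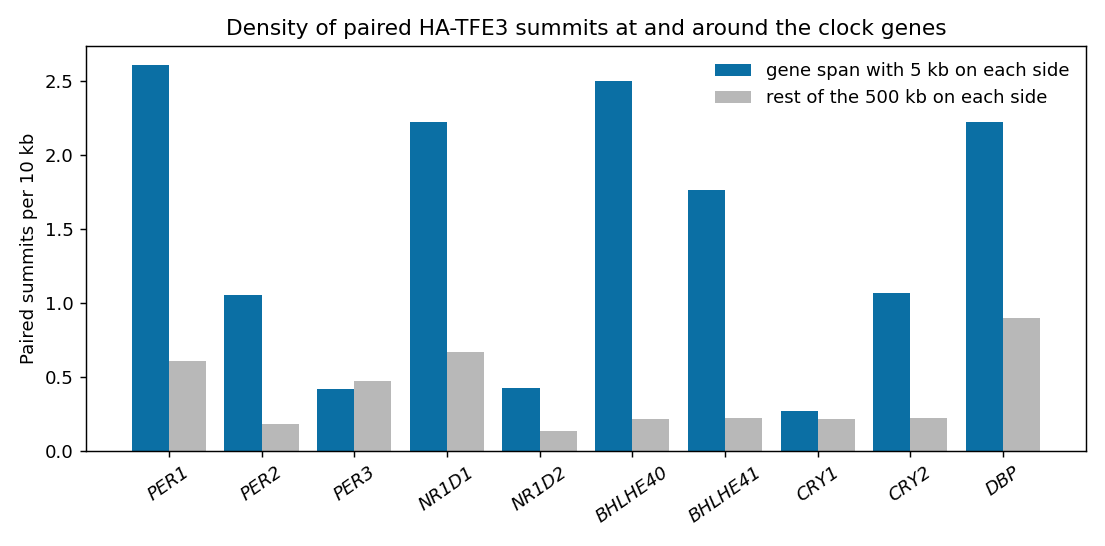
Paired HA-TFE3 summits per 10 kb (vertical axis) in each gene span with 5 kb on each side (blue) and in the rest of the 500 kb on each side (grey). The blue bar is higher for 9 of the 10 genes, with PER3 the exception. Windows of other genes were not compared in this way.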

How the data were processed

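Each ChIP library was deposited by the authors as a list of 1 bp summits with a score. Its positions are on hg19, according to the submitters' processing notes. The scale of the deposited score, the aligner, the peak caller and the use of the input are not stated in the sources at hand. Scores were used only within a list. Sequencing depth is unknown, and no interval is given. Positions were made 1-based and chromosomes 1 to 22 and X were kept, which left 62287 of 62322 and 72647 of 72692 summits. The pairing step, tested on simulated lists of 2000 summits, recovered 99.7% of 1500 shared ones. Simulated shared summits lay well within the limit of 100 bp, so this checks the procedure only. It does not show how many shared sites of the data were paired.

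The genes, spans, motifs and named summits (the highest pair and the pair nearest the 5′ edge of each gene) were chosen with earlier results of these data known. Summits and pairs beyond that rule were named after their values were seen. Gene neighbours and promoters came from RefSeq tables (GRCh38.p14), where all 10 genes matched. No hg19 annotation was used, so the planned list of other clock genes (BMAL1, CLOCK and others) was not analysed here. Calculations used Python 3.11.15, NumPy 2.4.6 and pandas 2.3.3, and plots matplotlib 3.10.9.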

Additional observations from a re-analysis of the deposited data

How the results depend on the processing

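The alternatives were limits of 50, 200 and 500 bp, summits above the median score, the 10000 highest-scoring summits, each library alone, no flank or 10 kb, and a 5′ zone of 1 or 5 kb. Among the 10000 highest-scoring summits, pairs fell from 40 to 12, genes with a pair at the 5′ end from 10 to 5, and the paired share of replicate 1 from 88.9% to 70.6%. At 50 bp the paired shares were 71.1% and 59.3%. Each library alone held 45 and 54 summits in the windows and gave 10 genes with a summit at the 5′ end. With a zone of 1 kb 7 genes had such a pair, and at 50 bp 8 did. Genes with any pair in the window fell from 10 to 7 among the 10000 highest-scoring summits, where NR1D2, BHLHE40 and BHLHE41 had none. The other counts of pairs and genes stayed within 1.5-fold of the reported ones. Score percentiles, by gene and over all pairs, moved past the spread between libraries in 15 cases and did not in 82. Percentiles were ranked in the full lists, so a highest pair kept among the high-scoring summits keeps its value. The summits above the median gave 10 of the 82 and the 10000 highest-scoring gave 7, which therefore say nothing of stability. Genes left without a pair were not in the tally. At 200 bp the upstream summits of PER1 formed a pair of mean percentile 98.9. Alternatives for score ranks of all pairs were chosen after seeing the data. No paired analysis was possible because the series has only 1 group of ChIP libraries with summit lists. Without read counts, a summit missing from a list is not shown to be unbound.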
